A study of Mus musculus and Homo sapiens with 18 samples.

Results

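Matrix metalloproteinases (MMPs), the ADAM, ADAMTS and ADAMTS-like genes and the tissue inhibitors of metalloproteinases (TIMPs) were followed through mouse bladder carcinoma libraries. Members were taken by gene symbol among genes with a protein_coding transcript: 23 Mmp, 34 Adam, 19 Adamts, 5 Adamtsl and 4 Timp genes, 85 of the 55858 genes quantified. Poly(A) RNA was sequenced from 4 mouse groups of 3 libraries, and 6 libraries of a human line were not used here. One comparison set relapsed tumours from a genetically engineered mouse model (GEMM), labelled with cisplatin and gemcitabine chemotherapy, against control tumours. The other set the mouse line CUUC-G, whose labels also read GEMM, carrying a guide RNA against Igfbp5 (sgIgfbp5) against CUUC-G with the control guide sgScr. Igfbp5 encodes an extracellular binding protein of the insulin-like growth factors; the sample labels call the perturbation a knockdown and the series' design text a knockout. A vehicle is named among the treatments without saying which libraries received it. The model's alleles and promoter, the age of the mice and whether CUUC-G is 1 clone are not given in the sources used here. Nor is it given whether replicates came from separate tumours or cultures, so p-values measure the spread between these libraries, which may be technical.

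MMPs are zinc-dependent endopeptidases, made as inactive precursors, that cut collagens, proteoglycans and other matrix proteins, and TIMPs block their active site. ADAMs are membrane proteases that release the outer parts of growth factors, cytokines and receptors from the cell surface, although several have lost the catalytic residues. ADAMTS enzymes are secreted: some process procollagens and some cut proteoglycans such as versican and aggrecan, while the ADAMTS-like proteins lack the protease domain. In bladder carcinoma these families are studied for invasion through the basement membrane and for the release of growth factor receptor ligands.

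Library totals were 18964942 to 21757109 estimated counts for the tumours and 19210830 to 20729980 for CUUC-G, and levels are CPM, counts scaled by TMM-adjusted library size. Igfbp5 was low throughout, with 114 counts summed over sgScr, 30 over sgIgfbp5, 27 over control and 149 over relapsed libraries. The Y-linked Ddx3y had 4503 counts in control and 0 in relapsed tumours, and Xist had 5 and 29239, so relapse and this sex-linked difference cannot be told apart. Ddx3y had 0 counts in both CUUC-G groups, where Xist had 23705 with sgScr and 87761 with sgIgfbp5. Of 8 urothelial markers, Krt5 and Upk3a had 0 counts in all 4 groups and Epcam averaged at most 0.230 CPM. Others were present, in tables that were normalised separately: Krt8 averaged 0.0168 CPM in control, 142 in relapsed, 165 in sgScr and 47.3 in sgIgfbp5 libraries. Upk1b averaged 2.78 CPM in control, 99.1 in relapsed, 90.2 in sgScr and 9.81 in sgIgfbp5 libraries, and Krt18 and Cdh1 had counts in every group.

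Of the 85 members, 15 had no count in any of the 12 libraries: 11 ADAMs of the germ line and epididymis, such as Adam7, Adam24 and Adam26a, along with Mmp1a, Mmp7, Mmp20 and Adamts18. In each comparison 44 members passed the filter on low counts and 41 did not. The untested members had group means of at most 0.675 CPM in the tumours and 0.697 CPM in CUUC-G. Of the 22 germ-line ADAMs only Adam1a and Adam4 were tested, both below 5 CPM. The heat map of 36 members with a group mean of at least 5 CPM shows their level in each library.

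**Figure D1:**
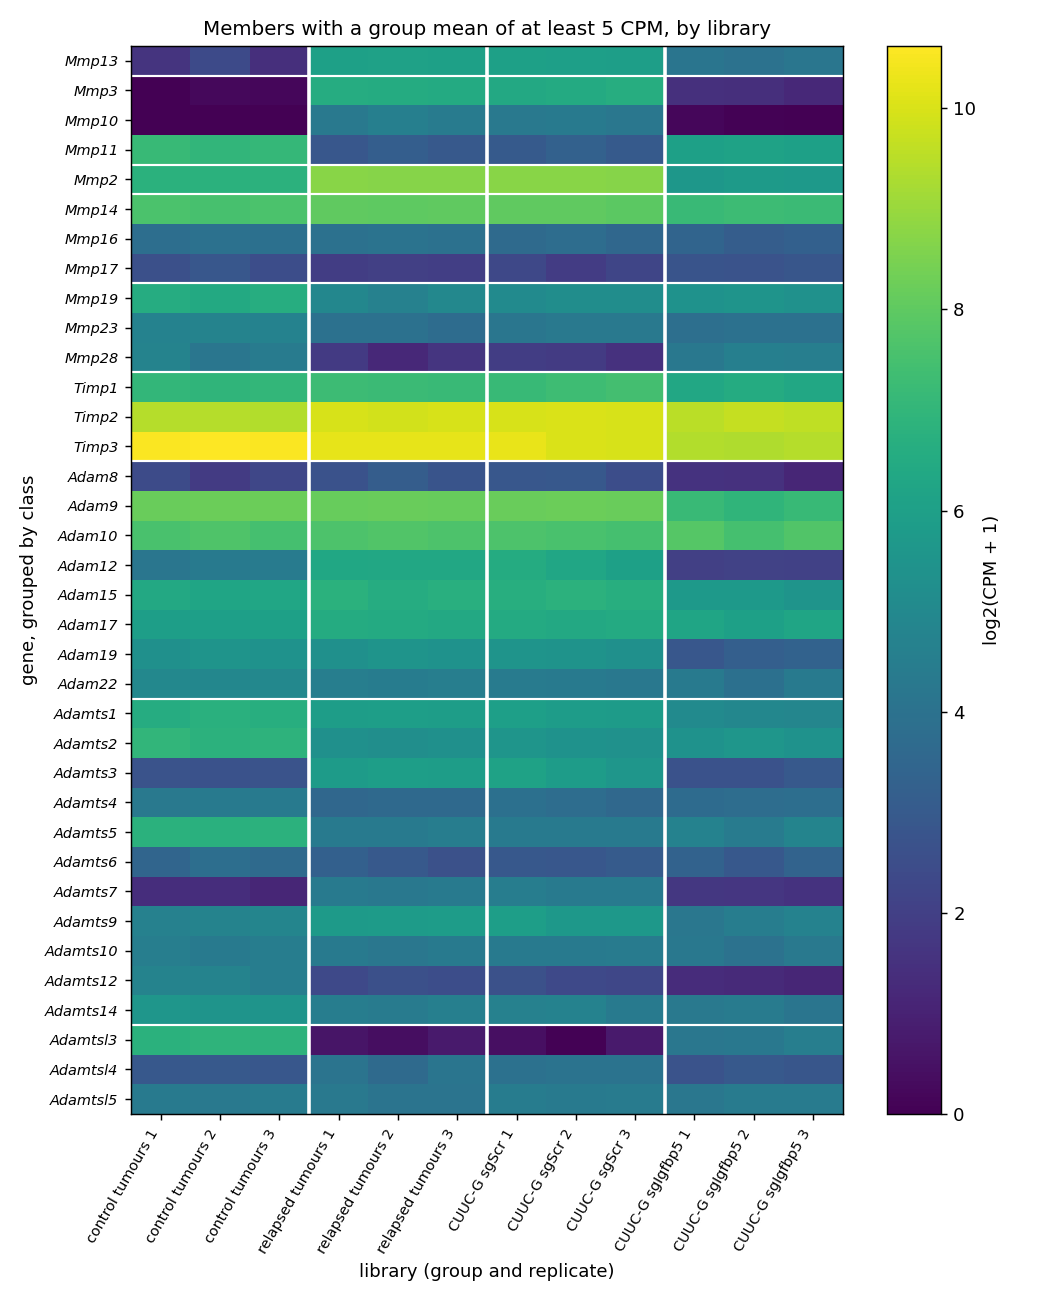
Level of 36 metalloproteinase and inhibitor genes (rows, grouped by class) in 12 libraries (columns, 4 groups of 3), as log2(CPM + 1) on the colour scale. Libraries of a group look alike, Timp2 and Timp3 are bright throughout, and Mmp3, Mmp10 and Adamtsl3 are near 0 in some groups and not in others.

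At relapse the stromelysins Mmp3 and Mmp10, the collagenases Mmp13 and Mmp8, the gelatinase Mmp2, Adam12, Adamts3 and Adamts7 were higher than in control tumours. Mmp11, Mmp19, Mmp28, Adamts2, Adamts5, Adamts12 and Adamtsl3 were lower, and Timp1, Timp2 and Timp3 moved by less than 1.5-fold. With edgeR's quasi-likelihood test and a Benjamini-Hochberg adjusted p under 0.05, 36 of 44 tested members were called, 19 higher and 17 lower. Most genes differed at relapse: 73.5% of all 14373 tested genes were called (36.6% higher, 36.9% lower), so the members' share of 81.8% lies near the background. At least 2-fold changes were called for 20 members, 11 higher and 9 lower, beside 25.2% of all genes (13.2% higher, 12% lower). The libraries did not overlap for 38 of the 44, beside 75.3% of all genes, and the members' median log2 fold change was 0.04 beside 0.0019 for all genes.

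Some genes listed as markers of cell types moved as well. Summed over its list, the endothelial level was 1.73–2.72 CPM in control and 151–163 CPM in relapsed libraries, with Cdh5 at 0 counts in control. That rise was nearly all Kdr, from a mean of 1.44 to 156 CPM. Tek went the other way, from 0.748 to 0.0827 CPM (log2 fold change -3.08 ± 0.73, edgeR adjusted p = 4.45e-04). Pecam1, Cdh5 and Vwf were not tested and averaged at most 0.578 CPM, so the list did not move as a whole. Urothelial markers summed to 5.52–5.98 CPM in control and 332–349 CPM in relapsed libraries. Fibroblast markers summed to 10049.9–10319 CPM in control and 5698–5833 CPM in relapsed libraries, nearly all of it Col1a1, yet 3 of the 6 rose and 3 fell. Pdgfra rose 9.66-fold, Lum 5.04-fold and Dcn 1.26-fold, so the list did not move 1 way. Macrophage markers summed to 5.03–5.47 CPM in control and 26.4–26.6 CPM in relapsed libraries, mostly Cd14. Ptprc, Adgre1 and Itgam were hardly detected in either group: control tumours held 2, 3 and 2 counts of them, and relapsed tumours 0 of each. T cell markers summed to 9.62–10.7 CPM in control and 2.5–2.59 CPM in relapsed libraries with Cd3e, Cd3g and Cd2 at 0 counts in both groups. That fall was Lck alone, 9.74 to 1.27 CPM, and Trac rose (1.24 ± 0.43, edgeR adjusted p = 0.0110). Neutrophil markers reached at most 0.392 CPM. In tables normalised separately, Kdr averaged 156 CPM in relapsed tumours and 153 CPM in sgScr libraries of the CUUC-G line. Cd14 averaged 21.1 and 21.3 CPM in the same groups. The part of these lists in the protease results was not tested, and in bulk RNA fewer cells of a type and less RNA per cell cannot be told apart.

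The collagenases and stromelysins changed by the most among the genes that rose, and they lie together. On chromosome 9 (GENCODE M21, GRCm38) 10 Mmp genes occupy 427.1 kb between positions 7272514 and 7699585, in the order Mmp13, Mmp12, Mmp1b, Mmp3, Mmp1a, Mmp10, Mmp8, Mmp27, Mmp20 and Mmp7. Mmp3 (chr9:7445822-7455975), stromelysin-1, which cuts proteoglycans and activates other pro-MMPs, had 0, 0.158 and 0.151 CPM in control and 94.2, 92.1 and 87.9 CPM in relapsed libraries. Its log2 fold change was 9.77 ± 0.17 (SE, 3 libraries per group; edgeR adjusted p = 4.51e-27), from 6 to 5531 counts over the groups. Mmp10 (chr9:7502352-7510240), stromelysin-2, had 0 CPM in all control and 18.9, 23.0 and 20.2 CPM in relapsed libraries. Against a floor of 3 counts for the control group as a whole, that is at least 419.5-fold higher (edgeR adjusted p = 1.05e-19). Both stromelysins were thus at or near 0 in every control library and clearly expressed in every relapsed one. Mmp13 (chr9:7272514-7283331), collagenase-3, which cuts fibrillar collagens, had 2.01, 4.21 and 1.66 CPM in control and 65.2, 67.4 and 63.8 CPM in relapsed libraries (log2 fold change 4.66 ± 0.22, edgeR adjusted p = 9.48e-07). Mmp8 (chr9:7558456-7568485), a collagenase best known from neutrophils, had 0 CPM in all control and 2.09, 2.04 and 3.09 CPM in relapsed libraries, at least 48.8-fold higher (edgeR adjusted p = 1.25e-09). The other 6 genes of the cluster had at most 40 counts over any group, and Mmp1a, Mmp20 and Mmp7 had none. Mmp12 went from 20 to 39 counts and Mmp27 from 4 to 26 at relapse, and neither passed the count filter. Without that filter edgeR also called Mmp27 at relapse.

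Promoters of the cluster are shown because 4 of its genes rose together while their neighbours stayed at few or no counts. RefSeq promoters (GRCm38.p6) were searched over the 250 bases before each start for TGANTCA. This pattern takes in the AP-1 site, allows any base in the middle and reads the same on both strands. It was found in 12 of 59 promoters of the 54 members with an entry (20.3%), beside 6.75% of all 32851 promoters, and 31 members had no entry. Outside the cluster only Adam19, Adam20, Adam25 and Adam29 held it. Most matches thus came from neighbouring genes of this cluster, and the share does not describe the families as a whole. The last 120 bases before the start follow for the 4 genes that rose and for Mmp7, which had no count, each 5′ to 3′ on the plus strand with TGANTCA in capitals.
Mmp13: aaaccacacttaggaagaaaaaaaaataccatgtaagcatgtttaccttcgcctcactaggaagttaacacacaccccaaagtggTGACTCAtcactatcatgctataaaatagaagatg
Mmp3: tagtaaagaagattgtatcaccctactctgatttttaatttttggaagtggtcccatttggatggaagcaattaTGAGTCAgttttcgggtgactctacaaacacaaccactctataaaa
Mmp10: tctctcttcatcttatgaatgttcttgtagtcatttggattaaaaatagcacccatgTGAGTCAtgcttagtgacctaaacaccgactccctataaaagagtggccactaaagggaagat
Mmp8: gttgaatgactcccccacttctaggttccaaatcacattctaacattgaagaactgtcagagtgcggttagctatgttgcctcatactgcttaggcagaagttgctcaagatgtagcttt
Mmp7: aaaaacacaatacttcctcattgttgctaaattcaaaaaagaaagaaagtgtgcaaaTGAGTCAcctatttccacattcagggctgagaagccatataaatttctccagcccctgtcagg

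These stretches are chr9:7272394-7272513 for Mmp13, chr9:7445702-7445821 for Mmp3, chr9:7502222-7502341 for Mmp10, chr9:7558309-7558428 for Mmp8 and chr9:7691970-7692089 for Mmp7. The motif began 35 bases before the start in Mmp13, 46 in Mmp3 and 63 in Mmp10, and none was in the 250 bases of Mmp8. Among genes of few or no counts, Mmp7 held it 63 bases, Mmp1a 73 bases, Mmp1b 93 bases and Mmp20 95 bases before the start, and 1 of the Mmp12 promoters 44 bases before. The Mmp20 match read TGAATCA, and those printed above read TGACTCA or TGAGTCA. Genes with and without expression thus carried these letters, and a match is a description, not a measured binding site.

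**Figure D2:**
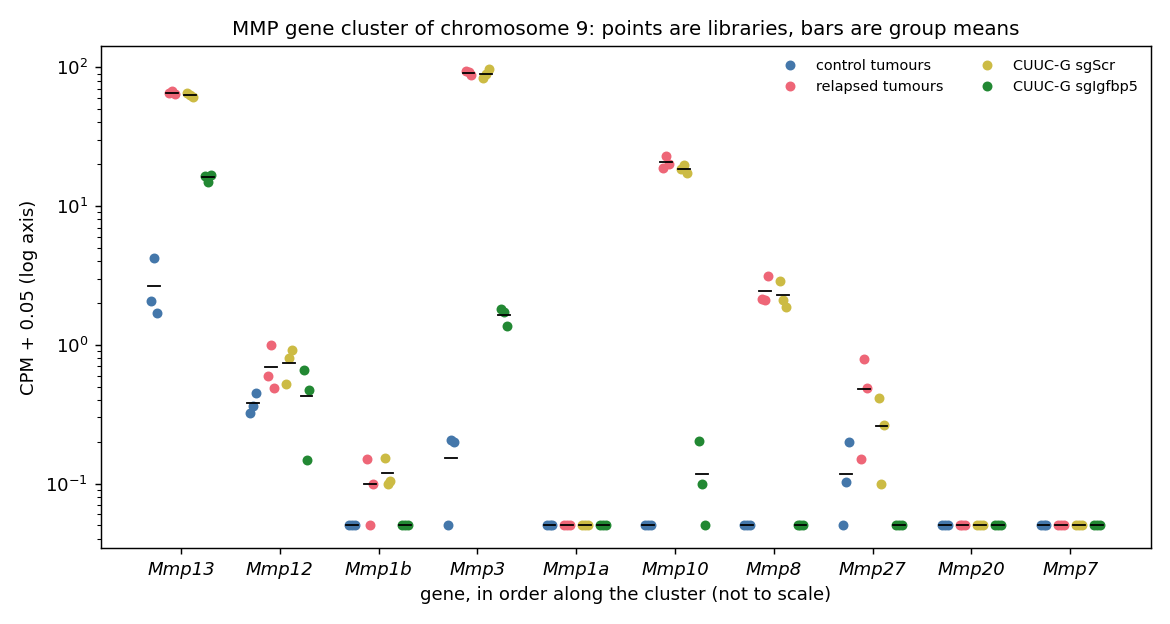
CPM + 0.05 on a log axis for the 10 Mmp genes of the chromosome 9 cluster, in gene order, with 1 point per library and a bar at the group mean. Mmp13, Mmp3, Mmp10 and Mmp8 are high in the relapsed and sgScr libraries, and Mmp1a, Mmp20 and Mmp7 lie on the floor in all groups.

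Outside the cluster, the gelatinase Mmp2 and its activator were higher at relapse. Mmp2 (chr8:92827291-92853420), which degrades denatured collagen and type IV collagen, had 109.6, 109 and 113 CPM in control and 423, 417 and 418 CPM in relapsed libraries (log2 fold change 1.92 ± 0.04, edgeR adjusted p = 2.19e-26). Mmp14 (chr14:54431612-54445364), the membrane-anchored enzyme that activates pro-MMP2, had 196, 185 and 196 CPM in control and 259, 251 and 259.6 CPM in relapsed libraries (0.41 ± 0.04, edgeR adjusted p = 6.42e-11). For both genes every relapsed library lay above every control library, with a 3.79-fold difference for Mmp2 and 1.33-fold for Mmp14. Mmp9, the other gelatinase, had 35 counts over the control and 32 over the relapsed libraries (-0.10 ± 0.52, edgeR adjusted p = 0.873). Mmp15, another membrane-type enzyme, had 1.41, 0.736 and 1.81 CPM in control and 2.49, 2.24 and 1.96 CPM in relapsed libraries (0.75 ± 0.33, edgeR adjusted p = 0.0434). Without control replicate 1 or 2 the adjusted p of Mmp15 was 0.0617 or 0.216 by edgeR, and without relapsed replicate 1 or 2 it was 0.136 or 0.0887. Of the other membrane-type genes, Mmp16 overlapped between groups, from 13.5, 14.4 and 14.2 to 14.4, 15.5 and 14.4 CPM (0.08 ± 0.10, edgeR adjusted p = 0.506). Mmp17, held by a lipid anchor, fell from 5.11, 6.36 and 4.63 to 2.84, 3.04 and 2.94 CPM (-0.86 ± 0.20, edgeR adjusted p = 3.68e-04).

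A further set of 4 MMPs was lower at relapse. Their groups did not overlap, as was so in either direction for 75.3% of all tested genes. Mmp11 (chr10:75923222-75936496), stromelysin-3, an enzyme activated inside the cell by furin and known from tumour stroma, had 141, 125 and 134 CPM in control and 6.38, 7.97 and 6.86 CPM in relapsed libraries (log2 fold change -4.24 ± 0.07, edgeR adjusted p = 1.04e-26). It was abundant in control tumours and low in every relapsed library, the reverse of Mmp3. Mmp28 (chr11:83440768-83463071), epilysin, had 25.5, 17.1 and 20.3 CPM in control and 2.54, 1.34 and 2.11 CPM in relapsed libraries (-3.39 ± 0.19, edgeR adjusted p = 1.59e-11). Mmp19, an enzyme that cuts basement membrane proteins, had 93.2, 86.6 and 98.3 CPM in control and 29.5, 24.4 and 29.8 CPM in relapsed libraries (-1.73 ± 0.07, edgeR adjusted p = 2.02e-17). Mmp28 changed 10.5-fold and Mmp19 3.32-fold. Mmp23, an MMP with a membrane signal anchor, had 24.9, 26.0 and 25.4 CPM in control and 14.5, 14.6 and 12.3 CPM in relapsed libraries (-0.88 ± 0.09, edgeR adjusted p = 1.38e-09). Exons of Mmp11, Mmp19, Mmp28, Adam8, Adam15, Adam17, Adam19, Adamts4, Adamts7, Adamts9 and Timp3 overlap a gene on the opposite strand in GENCODE M21, and those of Adam1a overlap Mapkapk5 on the same strand. Whether quantification used strand is not given in the sources used here, so shared reads of these genes cannot be told apart.

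Of 10 ADAMs of somatic tissues tested at relapse, 5 were higher, 2 lower and 3 not past the threshold. The share called was 70%, near the 73.5% of all tested genes. Adam12 (chr7:133883199-134232146), a protease that sheds heparin-binding EGF, had 17.0, 18.9 and 20.7 CPM in control and 78.1, 81.9 and 80.6 CPM in relapsed libraries (log2 fold change 2.09 ± 0.07, edgeR adjusted p = 2.44e-20). Adam17, which releases TNF and ligands of the EGF receptor, had 60.8, 62.4 and 64.7 CPM in control and 91.3, 89.0 and 85.0 CPM in relapsed libraries (0.50 ± 0.05, edgeR adjusted p = 1.01e-09). Adam15, a disintegrin that binds integrins, went from 85.0, 73.8 and 77.9 to 108, 94.98 and 102.7 CPM (0.37 ± 0.05, edgeR adjusted p = 1.48e-06). Adam12 changed 4.26-fold, Adam17 1.41-fold and Adam15 1.29-fold, each with no overlap between groups. Adam8, an ADAM of leukocytes and tumour cells, went from 4.33, 2.58 and 3.77 to 5.44, 7.82 and 5.69 CPM (0.82 ± 0.20, edgeR adjusted p = 8.00e-04). Adam10, the sheddase of Notch receptors and E-cadherin, had 187, 204 and 179.9 CPM in control and 199.9, 211 and 202 CPM in relapsed libraries (0.10 ± 0.04, edgeR adjusted p = 0.0319). Its ranges overlapped, and the call was lost without control replicate 1 or 3 or relapsed replicate 2 (adjusted p = 0.108, 0.274 and 0.136 by edgeR).

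Adam9, the ADAM with the highest CPM, had 296, 301 and 299.8 CPM in control and 281, 289 and 286 CPM in relapsed libraries (log2 fold change -0.07 ± 0.03, edgeR adjusted p = 0.0682). That difference was past the threshold in 6 of its other settings: without control replicate 1 (adjusted p = 0.0348 by edgeR), with library-size scaling (0.0179), with no count filter (0.0415) and in the 3 limma fits on log2 TPM. In limma on log2(TPM + 1) it was -0.21 (adjusted p = 0.00144), so whether Adam9 is called lower depends on the setting. Adam19, a protease known for shedding neuregulin, had 39.8, 43.8 and 41.3 CPM in control and 39.4, 44.2 and 41.9 CPM in relapsed libraries (0.01 ± 0.07, edgeR adjusted p = 0.907). By edgeR with TMM scaling neither gene was called at relapse, with differences of 1.05-fold and 1.01-fold. Adam22, a member without protease activity that binds LGI1 in neurons, fell from 30.5, 29.1 and 30.0 to 22.2, 21.3 and 22.1 CPM (-0.45 ± 0.08, edgeR adjusted p = 6.88e-06). Adam23, of the same kind, had 65 counts over the control and 10 over the relapsed libraries (-2.65 ± 0.54, edgeR adjusted p = 8.70e-05). Adam1a, a germ-line ADAM with a close copy in Adam1b, rose from 0.593, 1.47 and 1.16 to 2.79, 3.29 and 1.81 CPM (1.30 ± 0.35, edgeR adjusted p = 0.00144).

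Of 11 ADAMTS proteases tested, 3 were higher, 7 lower and 1 not past the threshold, or 90.9% called beside 73.5% of all tested genes. Close relatives parted. Adamts3 (chr5:89677087-89883334), a procollagen N-proteinase that also activates VEGFC, had 5.52, 5.31 and 5.63 CPM in control and 56.0, 61.1 and 60.1 CPM in relapsed libraries (log2 fold change 3.43 ± 0.09, edgeR adjusted p = 3.35e-23). Adamts2, a procollagen N-proteinase, had 124, 112 and 115 CPM in control and 39.0, 36.9 and 38.7 CPM in relapsed libraries (-1.61 ± 0.05, edgeR adjusted p = 2.60e-20). Adamts14, the remaining enzyme of this activity, had 47.3, 44.6 and 44.3 CPM in control and 21.8, 20.3 and 22.8 CPM in relapsed libraries (-1.07 ± 0.07, edgeR adjusted p = 2.64e-13). Of the 3 procollagen N-proteinases, then, Adamts3 rose and Adamts2 and Adamts14 fell. Adamts7 (chr9:90163069-90208071), which cuts cartilage oligomeric matrix protein, had 1.64, 1.63 and 1.21 CPM in control and 19.2, 18.2 and 19.9 CPM in relapsed libraries (3.67 ± 0.15, edgeR adjusted p = 3.97e-18). Adamts12, its closest relative, had 25.6, 26.2 and 21.6 CPM in control and 4.04, 5.08 and 4.76 CPM in relapsed libraries (-2.40 ± 0.12, edgeR adjusted p = 2.64e-16). Adamts7 rose and Adamts12 fell, and neither pair of groups overlapped.

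Among the enzymes that cut versican and aggrecan, 3 fell and 1 rose. Adamts5, an aggrecanase, had 109, 106 and 112 CPM in control and 19.8, 19.7 and 21.7 CPM in relapsed libraries (log2 fold change -2.41 ± 0.06, edgeR adjusted p = 2.68e-23). Adamts1, which cuts both proteoglycans, fell from 94.5, 107 and 100.2 to 58.9, 60.5 and 59.4 CPM (-0.75 ± 0.05, edgeR adjusted p = 2.91e-13). Adamts4, the other aggrecanase, fell from 18.5, 19.2 and 19.8 to 10.6, 11.4 and 11.3 CPM (-0.78 ± 0.10, edgeR adjusted p = 5.19e-08). Adamts5 changed by the most of the 3, 5.33-fold. Adamts9, which also cuts versican, rose from 24.7, 25.6 and 27.2 to 53.7, 56.1 and 57.6 CPM (1.11 ± 0.07, edgeR adjusted p = 2.45e-14). Their substrate versican, Vcan, went from 74.7, 80.4 and 69.4 to 548, 552 and 541 CPM (2.87 ± 0.04, edgeR adjusted p = 3.75e-28). Adamts6, which acts on fibrillin microfibrils, fell from 10.1, 13.2 and 11.8 to 8.43, 6.77 and 5.29 CPM (-0.78 ± 0.15, edgeR adjusted p = 5.88e-05). Its relative Adamts10 went from 22.0, 19.8 and 21.5 to 19.0, 17.6 and 19.6 CPM (-0.17 ± 0.09, edgeR adjusted p = 0.0770), and passed without control replicate 2 (adjusted p = 0.0376 by edgeR) or with library-size scaling (0.0492). Adamts16 was not tested, with 17 counts over the control and 5 over the relapsed libraries.

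Adamtsl3, an ADAMTS-like matrix protein without a protease domain, showed the lowest log2 fold change of the members tested at relapse. Adamtsl3 (chr7:82335694-82614450) had 109, 118 and 116 CPM in control and 0.499, 0.299 and 0.686 CPM in relapsed libraries (log2 fold change -7.83 ± 0.12, edgeR adjusted p = 3.11e-28). Its counts went from 6940 over the control to 30 over the relapsed libraries. Adamtsl4, which binds fibrillin-1, rose from 6.66, 6.89 and 6.28 to 16.0, 11.9 and 16.4 CPM (1.16 ± 0.13, edgeR adjusted p = 1.12e-08). Adamtsl5, a further microfibril-associated member, had 19.6, 18.4 and 20.6 CPM in control and 18.4, 15.9 and 15.8 CPM in relapsed libraries (-0.23 ± 0.09, edgeR adjusted p = 0.0323). The Adamtsl5 call was lost without control replicate 1 or 3 (adjusted p = 0.0522 and 0.110 by edgeR) or relapsed replicate 2 or 3 (0.126 and 0.124). With protein_coding transcripts alone Adamtsl5 went the other way (log2 fold change 0.54, edgeR adjusted p = 0.00732). Adamtsl1 had 68 and 49 counts over the groups and was not past the threshold (-0.46 ± 0.41, edgeR adjusted p = 0.321).

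The inhibitors shifted in composition. Timp1 (chrX:20870166-20874735), a secreted inhibitor, had 129, 122 and 131 CPM in control and 153, 151 and 148 CPM in relapsed libraries (log2 fold change 0.24 ± 0.04, edgeR adjusted p = 5.71e-06). Timp2, which blocks MMP2 and also helps MMP14 activate it, had 683, 686 and 679 CPM in control and 1006, 963 and 1001 CPM in relapsed libraries (0.54 ± 0.03, edgeR adjusted p = 1.08e-15). Timp3, the matrix-bound inhibitor that also blocks ADAM17 and aggrecanases, had 1503, 1573 and 1524 CPM in control and 1179.9, 1182 and 1194 CPM in relapsed libraries (-0.37 ± 0.03, edgeR adjusted p = 7.83e-13). Timp1 and Timp2 were higher and Timp3 lower in every relapsed library, by 1.18-, 1.45- and 1.29-fold, and Timp4 had 1 count over all 12 libraries. With limma on log2(TPM + 1) at relapse, 7 of the 32 called members it tested lost their call and 2 others gained one. The adjusted p was 0.0517 for Adam8, 0.911 for Adam10 with its direction reversed, 0.110 for Adam15, 0.0650 for Adam22, 0.0726 for Adamts6, 0.423 for Adamtsl5 and 0.435 for Mmp17. Adam9 and Adamts10 were called lower there, with 0.00144 and 0.0376. With DESeq2 the adjusted p was 0.0781 for Adam10, 0.119 for Adamtsl5 and 0.115 for Mmp15, and with protein_coding transcripts alone 0.0918 for Adamts6 by edgeR.

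In CUUC-G, Mmp3, Mmp10, Mmp13, Mmp8, Mmp2, Adam12, Adam19, Adamts3 and Adamts7 were lower with sgIgfbp5 than with sgScr. Mmp11, Mmp28, Adamtsl1 and Adamtsl3 were higher, and Timp1, Timp2 and Timp3 were each lower. By edgeR 34 of 44 tested members were called, 10 higher and 24 lower, beside 70.8% of 14553 genes (36.5% higher, 34.3% lower). At least 2-fold changes were called for 20 members, 5 higher and 15 lower, beside 31.3% of all genes (14.6% higher, 16.8% lower). The libraries did not overlap for 33 of the 44, beside 73.9% of all genes. The members' median log2 fold change was -0.41 and that of all genes 0.06, which moved to 0.17 when scaled by library size alone.

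Marker lists moved here too. Endothelial markers summed to 149–157 CPM in sgScr and 8.78–9.10 CPM in sgIgfbp5 libraries. That fall was nearly all Kdr, from a mean of 153 to 7.79 CPM. Tek, not tested, went from 0 to 34 counts over the groups, and Pecam1, also not tested, had 21 and 22. Urothelial markers summed to 342–385 CPM in sgScr and 86.0–104 CPM in sgIgfbp5 libraries. Fibroblast markers summed to 5946–6330.3 CPM in sgScr and 2712–3051 CPM in sgIgfbp5 libraries, nearly all of it Col1a1. Of 5 tested fibroblast markers 4 fell, and Pdgfrb rose (log2 fold change 0.39 ± 0.10, edgeR adjusted p = 0.00342). Macrophage markers summed to 25.7–27.6 CPM in sgScr and 6.06–8.41 CPM in sgIgfbp5 libraries with Ptprc and Adgre1 at 0 counts in both groups. T cell markers summed to 1.77–2.35 CPM in sgScr and 17.8–18.5 CPM in sgIgfbp5 libraries, mostly Lck, with Cd3e, Cd3g and Cd2 at 0 counts. Neutrophil markers reached at most 0.645 CPM, and the part of any list in the protease results was not tested.

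The 4 expressed genes of the chromosome 9 cluster all fell. Mmp3, stromelysin-1, had 83.0, 89.3 and 97.5 CPM in sgScr and 1.77, 1.67 and 1.32 CPM in sgIgfbp5 libraries (log2 fold change -5.82 ± 0.13, edgeR adjusted p = 4.06e-11). Mmp10 had 18.4, 19.7 and 17.4 CPM in sgScr and 0.151, 0.0492 and 0 CPM in sgIgfbp5 libraries, from 1068 to 4 counts (-8.02 ± 0.32, edgeR adjusted p = 2.11e-09). Mmp13 had 65.3, 63.0 and 60.7 CPM in sgScr and 16.3, 14.95 and 16.8 CPM in sgIgfbp5 libraries (-1.98 ± 0.08, edgeR adjusted p = 4.00e-09). Mmp13 fell the least of the 4 and kept a mean of 16.0 CPM with sgIgfbp5, against 1.58 CPM for Mmp3. Mmp8 had 2.81, 2.06 and 1.83 CPM in sgScr and 0 CPM in all sgIgfbp5 libraries, at least 45.7-fold lower against the same floor (edgeR adjusted p = 8.37e-06). Mmp12, the macrophage elastase of the cluster, had 40 and 23 counts over the groups and was not past the threshold (-0.88 ± 0.55, edgeR adjusted p = 0.176).

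Mmp2, the gelatinase, had 428, 419 and 408 CPM in sgScr and 47.8, 53.9 and 53.0 CPM in sgIgfbp5 libraries (log2 fold change -3.02 ± 0.08, edgeR adjusted p = 9.71e-11). Mmp14, the activator of its precursor, had 259.7, 257 and 245 CPM in sgScr and 147, 156 and 152 CPM in sgIgfbp5 libraries (-0.75 ± 0.07, edgeR adjusted p = 1.25e-06). The groups did not overlap for either gene, and Mmp2 changed 8.11-fold against 1.68-fold for Mmp14. Mmp9, the other gelatinase, had 0.886, 0.452 and 0.753 CPM in sgScr and 0, 0.0984 and 0.282 CPM in sgIgfbp5 libraries, or 40 and 8 counts, and did not pass the count filter. Without that filter edgeR called it lower (-2.37 ± 0.74, adjusted p = 0.00387), as did DESeq2 (-2.48 ± 0.96, adjusted p = 0.0204). It was also called lower by edgeR without sgScr replicate 2 or without any 1 of the sgIgfbp5 libraries (adjusted p from 0.00251 to 0.0294), but not by limma on log2(TPM + 1) without a TPM filter (-0.13 ± 0.20, adjusted p = 0.647). Mmp11, stromelysin-3, had 6.98, 8.93 and 7.15 CPM in sgScr and 65.1, 69.1 and 64.1 CPM in sgIgfbp5 libraries (3.10 ± 0.11, edgeR adjusted p = 8.42e-10). Mmp28, epilysin, had 2.76, 2.61 and 1.88 CPM in sgScr and 18.2, 23.0 and 22.5 CPM in sgIgfbp5 libraries (3.13 ± 0.17, edgeR adjusted p = 2.31e-08). Both were higher in every sgIgfbp5 library, 8.58-fold and 8.75-fold. Mmp19 rose from 33.0, 36.2 and 36.0 to 42.2, 44.3 and 40.8 CPM (0.27 ± 0.08, edgeR adjusted p = 0.0103), a call lost without sgIgfbp5 replicate 2 (adjusted p = 0.0854 by edgeR). Mmp23 fell from 16.9, 18.9 and 18.3 to 13.8, 14.8 and 14.8 CPM (-0.32 ± 0.10, edgeR adjusted p = 0.0136), a call lost without sgScr replicate 2 (adjusted p = 0.0610 by edgeR) or by library size scaling (0.0790).

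The lower membrane-type genes went both ways. Mmp16 fell from 11.8, 12.8 and 10.5 to 9.59, 7.87 and 8.64 CPM (-0.43 ± 0.13, edgeR adjusted p = 0.0128), a call lost without sgScr replicate 2 (adjusted p = 0.0649 by edgeR). Mmp17 rose from 3.91, 2.66 and 3.60 to 5.81, 5.51 and 6.25 CPM (0.79 ± 0.19, edgeR adjusted p = 0.00306). Mmp15 rose from 3.02, 1.81 and 2.42 to 4.14, 4.08 and 3.52 CPM (0.70 ± 0.23, edgeR adjusted p = 0.0185), a call lost without sgScr replicate 2 or sgIgfbp5 replicate 2 (adjusted p = 0.0796 and 0.0533 by edgeR).

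Of 9 ADAMs of somatic tissues tested, 6 were lower, 0 higher and 3 not past the threshold by edgeR. The share called was 66.7%, beside 70.8% of all tested genes. Adam12, which sheds heparin-binding EGF, had 90.6, 76.0 and 64.3 CPM in sgScr and 3.08, 3.25 and 3.19 CPM in sgIgfbp5 libraries (log2 fold change -4.60 ± 0.15, edgeR adjusted p = 6.14e-10). Adam19, the sheddase of neuregulin, had 44.8, 43.5 and 39.7 CPM in sgScr and 6.31, 8.21 and 9.02 CPM in sgIgfbp5 libraries (-2.44 ± 0.13, edgeR adjusted p = 2.00e-08). Adam9 had 291, 298 and 288 CPM in sgScr and 145, 123 and 140.0 CPM in sgIgfbp5 libraries (-1.10 ± 0.08, edgeR adjusted p = 1.98e-07). These 3 were lower in every sgIgfbp5 library, Adam12 24.2-fold, Adam19 5.42-fold and Adam9 2.15-fold. Adam15 fell from 101, 114 and 101 to 52.7, 52.0 and 43.8 CPM (-1.09 ± 0.09, edgeR adjusted p = 1.05e-06). Adam8 fell from 6.46, 6.67 and 4.63 to 1.92, 1.82 and 1.22 CPM (-1.84 ± 0.24, edgeR adjusted p = 3.45e-05). Adam17, the TNF sheddase, fell from 88.9, 85.2 and 88.2 to 74.0, 64.7 and 75.5 CPM (-0.29 ± 0.08, edgeR adjusted p = 0.00675), a call lost when scaled by library size alone (adjusted p = 0.0656 by edgeR). The groups of Adam10, the Notch sheddase, overlapped, with 199, 187 and 181 CPM in sgScr and 223, 177 and 212 CPM in sgIgfbp5 libraries (0.11 ± 0.09, edgeR adjusted p = 0.285). Adam22 went from 20.2, 18.9 and 18.0 to 19.4, 14.2 and 19.0 CPM (-0.12 ± 0.13, edgeR adjusted p = 0.420). Adam1a rose from 1.72, 2.56 and 3.33 to 4.39, 3.30 and 4.65 CPM (0.70 ± 0.26, edgeR adjusted p = 0.0315), and its groups overlapped. That call was lost without sgScr replicate 1 or 2 (adjusted p = 0.113 and 0.0723 by edgeR) or sgIgfbp5 replicate 1 or 3 (0.0707 and 0.103).

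Of 12 ADAMTS proteases tested, 6 were lower, 2 higher and 4 not past the threshold, or 66.7% called beside 70.8% of all tested genes. Adamts3 had 68.8, 57.9 and 47.2 CPM in sgScr and 5.45, 5.41 and 6.76 CPM in sgIgfbp5 libraries (log2 fold change -3.30 ± 0.16, edgeR adjusted p = 1.97e-08). Adamts7 had 21.8, 19.2 and 19.2 CPM in sgScr and 2.32, 2.16 and 1.93 CPM in sgIgfbp5 libraries (-3.23 ± 0.14, edgeR adjusted p = 4.37e-09). They fell 9.84-fold and 9.37-fold, with no overlap between groups. Adamts2, the widely expressed procollagen N-proteinase, had 45.1, 41.7 and 40.6 CPM in sgScr and 42.1, 46.9 and 42.2 CPM in sgIgfbp5 libraries (0.04 ± 0.08, edgeR adjusted p = 0.663). Adamts9 fell from 60.2, 49.5 and 49.9 to 17.3, 21.5 and 24.99 CPM (-1.32 ± 0.13, edgeR adjusted p = 6.90e-06). Adamts1 fell from 62.0, 58.1 and 55.3 to 32.5, 29.6 and 28.2 CPM (-0.96 ± 0.09, edgeR adjusted p = 1.65e-06). Versican-cutting Adamts9 and Adamts1 were thus lower in every sgIgfbp5 library, while Adamts2 overlapped between groups. Adamts12 fell from 5.16, 4.11 and 3.77 to 1.57, 1.43 and 1.22 CPM (-1.63 ± 0.23, edgeR adjusted p = 7.27e-05). Adamts4, the aggrecanase, went from 14.3, 12.8 and 11.03 to 12.02, 12.8 and 13.1 CPM (-0.01 ± 0.12, edgeR adjusted p = 0.959). Adamts10 went from 19.0, 19.8 and 20.1 to 17.9, 15.1 and 18.6 CPM (-0.19 ± 0.11, edgeR adjusted p = 0.127). The last 2 were not past the threshold.

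Some ADAMTS results in CUUC-G lay near the threshold and changed when 1 library was left out. Adamts14 fell from 24.1, 25.2 and 19.6 to 18.7, 20.7 and 16.3 CPM, with overlapping groups (-0.31 ± 0.12, edgeR adjusted p = 0.0438). Its adjusted p was 0.0976 and 0.166 by edgeR without sgScr replicate 1 or 2, and 0.0661 and 0.1202 without sgIgfbp5 replicate 1 or 3. Adamts5 rose from 20.1, 19.8 and 19.5 to 25.4, 20.6 and 26.7 CPM (0.29 ± 0.11, edgeR adjusted p = 0.0345). Left out in turn, every library but sgIgfbp5 replicate 2 ended that call (adjusted p = 0.0586, 0.0883 and 0.0789 by edgeR without sgScr replicates 1, 2 and 3, and 0.1001 and 0.223 without sgIgfbp5 replicates 1 and 3). Adamts6 went from 6.52, 6.42 and 7.32 to 9.09, 6.49 and 9.35 CPM (0.30 ± 0.17, edgeR adjusted p = 0.127), and passed without sgIgfbp5 replicate 2 (adjusted p = 0.0312 by edgeR). Adamts16, detected at few counts, rose from 0.365, 0.201 and 0.161 to 0.959, 0.541 and 1.41 CPM (1.98 ± 0.52, edgeR adjusted p = 0.00552).

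Adamtsl3, the gene with the lowest fold change at relapse, had 0.365, 0.0502 and 0.699 CPM in sgScr and 17.6, 18.2 and 22.6 CPM in sgIgfbp5 libraries (log2 fold change 5.72 ± 0.35, edgeR adjusted p = 2.28e-07). Adamtsl1 had 0.990, 0.702 and 0.269 CPM in sgScr and 4.49, 4.28 and 5.64 CPM in sgIgfbp5 libraries (2.86 ± 0.34, edgeR adjusted p = 1.80e-05). Both were higher in every sgIgfbp5 library, and Adamtsl3 went from 21 to 1201 counts over the groups. Adamtsl4 fell from 14.4, 15.7 and 15.5 to 5.65, 6.79 and 6.11 CPM (-1.30 ± 0.12, edgeR adjusted p = 2.61e-06). Adamtsl5 went from 20.7, 19.8 and 20.3 to 17.3, 20.2 and 20.5 CPM (-0.06 ± 0.10, edgeR adjusted p = 0.580). The inhibitors were all lower with sgIgfbp5. Timp1 had 139.9, 160.2 and 174 CPM in sgScr and 82.7, 92.1 and 80.5 CPM in sgIgfbp5 libraries (-0.89 ± 0.09, edgeR adjusted p = 5.31e-06). Timp2 had 1018, 1030.3 and 1009 CPM in sgScr and 739, 813 and 773 CPM in sgIgfbp5 libraries (-0.39 ± 0.07, edgeR adjusted p = 2.49e-04). Timp3 had 1220.2, 1036 and 1018 CPM in sgScr and 677, 649.7 and 685 CPM in sgIgfbp5 libraries (-0.70 ± 0.08, edgeR adjusted p = 1.32e-05). For each of the 3 no sgIgfbp5 library reached the lowest sgScr library. Some calls in CUUC-G also depended on the method: with DESeq2 the adjusted p was 0.0818 for Adam1a, 0.136 for Adamts5, 0.0690 for Mmp15 and 0.0776 for Mmp19. With limma on log2(TPM + 1) it was 0.123 for Adam17, 0.0714 for Adam1a, 0.133 for Adamts5, 0.240 for Adamts14 and 0.316 for Mmp16.

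Set side by side, 42 members were tested in both comparisons. Higher at relapse and lower with sgIgfbp5 were 16 (38.1%, beside 24.7% of 13904 genes): Mmp2, Mmp3, Mmp8, Mmp10, Mmp13, Mmp14, Adam8, Adam12, Adam15, Adam17, Adamts3, Adamts7, Adamts9, Adamtsl4, Timp1 and Timp2. They make up 84.2% of the 19 members higher at relapse, beside 66.1% for all genes, and 66.7% of the 24 lower with sgIgfbp5, beside 69.5%. Lower at relapse and higher with sgIgfbp5 were 6 (14.3%, beside 23% of genes): Mmp11, Mmp17, Mmp19, Mmp28, Adamts5 and Adamtsl3. Lower in both were Mmp23, Adamts1, Adamts12, Adamts14 and Timp3, and higher in both were Adam1a and Mmp15.

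The labels give the comparisons no shared library, yet the relapsed and sgScr libraries were alike in these genes. Over 36 members at 5 CPM or more, the ratio of relapsed to sgScr mean CPM ran from 0.765 for Mmp23 to 1.33 for Adamtsl3. Mmp3 averaged 91.4 CPM in relapsed and 89.9 CPM in sgScr libraries, and Mmp2 419 and 418 CPM. Each comparison thus contains a group with nearly the same member levels; a common origin of the relapsed tumours and CUUC-G is not given in the sources used here. The tables were normalised separately, so no test was made across them. Control and sgIgfbp5 were less alike: 19 of 36 members lay within 2-fold, with Mmp28 at 21.0 and 21.2 CPM but Adamts12 at 24.5 and 1.40 CPM.

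**Figure D3:**
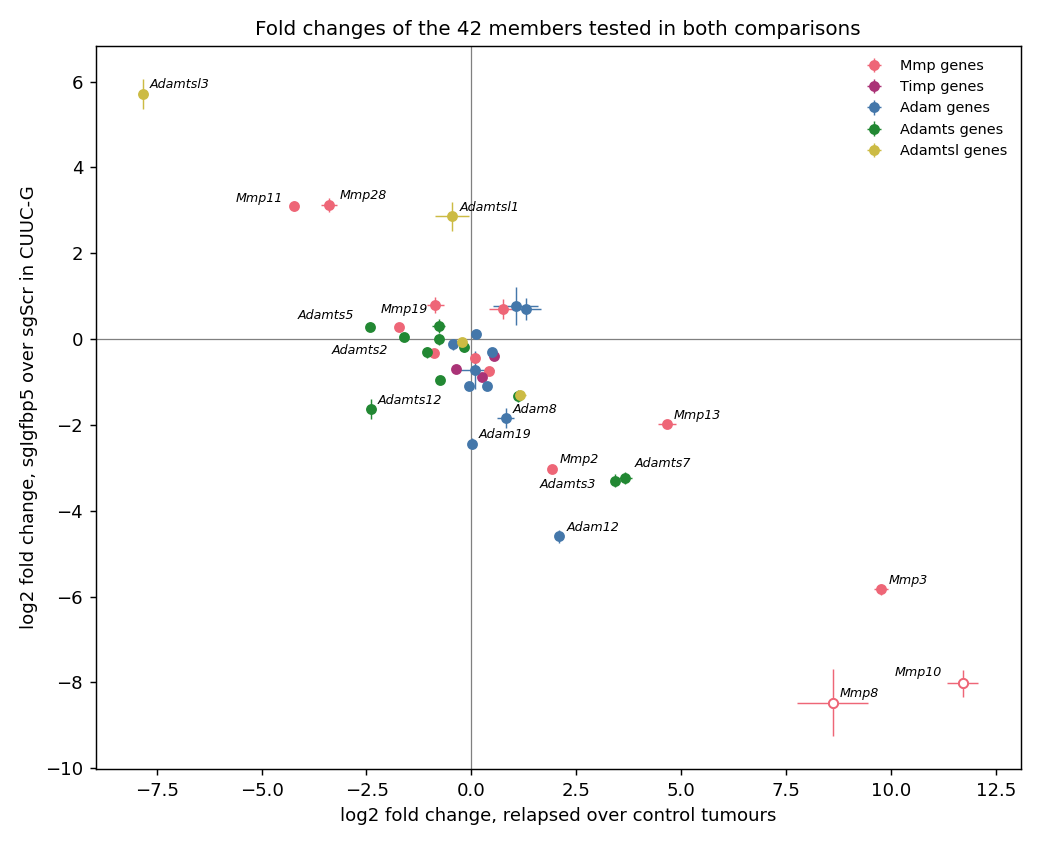
Log2 fold change of 42 members, relapsed over control tumours (horizontal) against sgIgfbp5 over sgScr in CUUC-G (vertical), with standard errors as lines and families in colour. Mmp3, Mmp13, Mmp2, Adam12, Adamts3 and Adamts7 lie at the lower right and Adamtsl3, Mmp11 and Mmp28 at the upper left; open symbols mark Mmp8 and Mmp10, whose fitted values rest on a group with 0 counts and are no measured size.

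Levels of different genes were compared as TPM, the unit of the deposited tables that corrects for transcript length. By TPM, Timp1, Timp2 and Timp3 were the 3 highest members in each group. The summed TPM of all Mmp genes was 429, 423 and 439 in control and 566, 560.0 and 557 in relapsed libraries, a mean ± SD of 430.5 ± 7.94 and 561 ± 4.60 TPM (n = 3). In CUUC-G it was 549, 524 and 508 TPM with sgScr and 233, 251 and 255 TPM with sgIgfbp5, or 527 ± 20.7 and 246 ± 11.6 TPM. The summed Mmp level was thus higher at relapse and lower with sgIgfbp5, with no overlap between groups in either comparison. The Timp sum was 1177 ± 16.0 TPM in control and 1158 ± 12.2 TPM in relapsed tumours, with overlapping libraries. With sgScr it was 1124 ± 29.0 TPM and with sgIgfbp5 721 ± 31.2 TPM, with no overlap. Mmp TPM per Timp TPM was 0.370, 0.358 and 0.369 in control and 0.484, 0.488 and 0.482 in relapsed libraries. It was 0.474, 0.472 and 0.459 with sgScr and 0.339, 0.348 and 0.339 with sgIgfbp5. More Mmp RNA per Timp RNA was thus present in relapsed tumours and with sgScr, and RNA levels do not measure active enzyme.

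The make-up of the Mmp sum changed along with its size. Mmp2 made up 13.9% of it in control and 36.8% in relapsed tumours, and 36.3% with sgScr and 10.1% with sgIgfbp5. Mmp11 made up 28.7% and 1.00% in the tumours, and 1.08% and 22.2% in the line. Mmp3 went from 0.0238% to 14.9% at relapse and from 14.97% to 0.591% with sgIgfbp5. Mmp14 kept a large part in each group, with 30.6%, 27.8%, 27.0% and 39.3% in the same order.

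**Figure D4:**
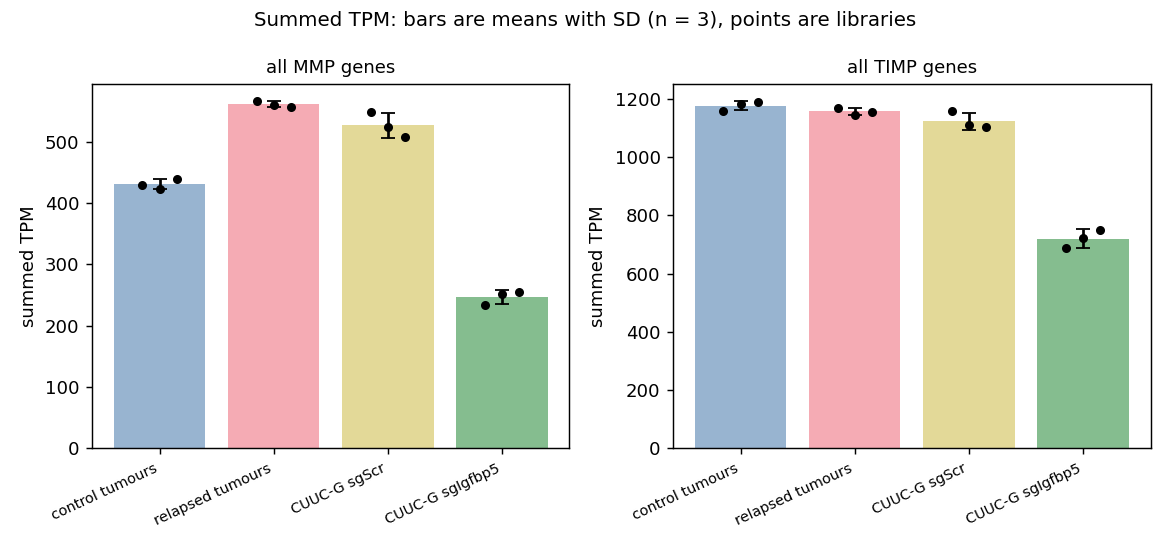
Summed TPM of all Mmp genes (left) and all Timp genes (right) in 4 groups; bars are means with the SD of 3 libraries and points are libraries. The Mmp sum is 561 TPM in relapsed against 430.5 TPM in control tumours, and the Timp sum with sgIgfbp5 is 721 TPM.

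The tumour table lists transcripts, so transcript use was described there. The share of a gene's count in transcripts not annotated as protein_coding did not overlap between groups for 7 of 29 members, beside 19.3% of 10053 genes. Without relapsed replicate 2 it was 12 of 29, beside 27.3% of genes in the same 3 against 2 libraries. The 7 were Adamtsl5 and Adamtsl3, with lower shares at relapse, and Adamts7, Adamts12, Adam10, Adam12 and Timp3, with higher ones. The exact permutation test over 3 and 3 libraries cannot go below p = 0.1. Some rest on few counts: Adamtsl3 had 30 over the relapsed libraries, too few to show a fall from its control mean of 0.499%. Adamts7 had 91 counts over the control libraries. Others are small: the mean share of Adam10 went from 0.00721 to 0.246% and that of Timp3 from 0.112 to 0.473%. Adamtsl5 had the widest shift, 72.1, 77.5 and 70.6% in control and 58.9, 51.4 and 52.6% in relapsed libraries. Its intron-retaining transcript Adamtsl5-203 held 57.2, 54.1 and 56.0% in control and 39.0, 32.4 and 37.9% in relapsed libraries. In Adamts7 the share was 0 in all control and 1.17, 10.8 and 10.1% in relapsed libraries. The Adamtsl5 RNA thus held more protein_coding transcript at relapse while the gene's total was lower.

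Between protein_coding forms, Timp1-201 held 58.7, 59.0 and 51.5% of Timp1 in control and 75.8, 75.6 and 75.1% in relapsed libraries. Adamts2-204, the shorter Adamts2 transcript, held 15.8, 13.2 and 13.4% in control and 29.1, 28.2 and 28.8% in relapsed libraries. The groups did not overlap for these transcripts, which were chosen after their values were seen. Other splits swung within a group: Adamts4-203, of 4386 bases beside 4389 for Adamts4-202, held 100, 0 and 0% in relapsed libraries. Adam8-202, of 3117 bases beside 3100 for Adam8-201, held 30.2, 0 and 98.7% in control libraries.

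**Figure D5:**
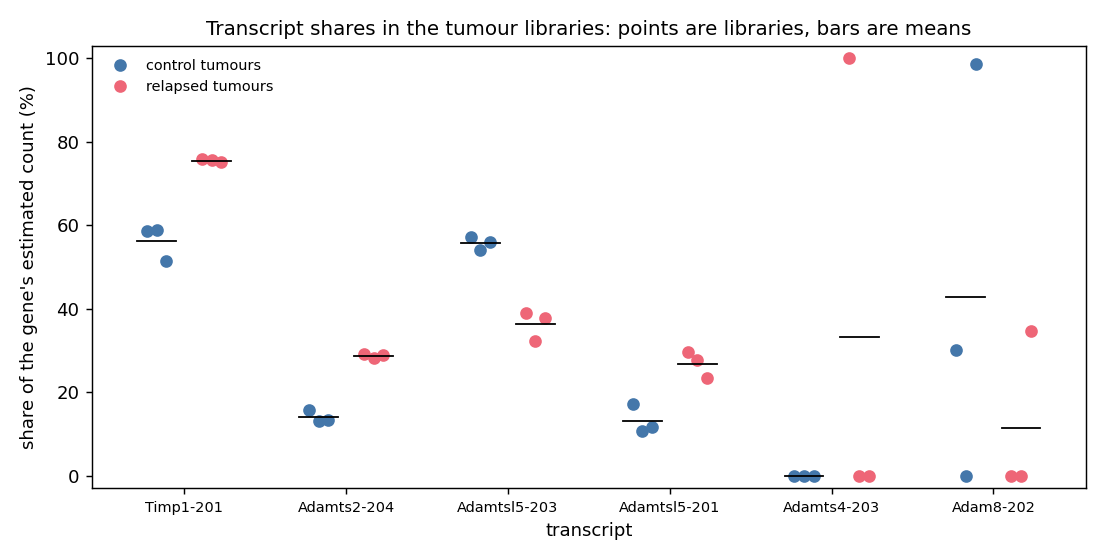
Share of the gene's estimated count, in percent, held by 6 transcripts in the control and relapsed tumour libraries; points are libraries and bars are means. Timp1-201, Adamts2-204, Adamtsl5-203 and Adamtsl5-201 separate the groups, while Adamts4-203 and Adam8-202 swing between libraries of 1 group.

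Regulators and substrates of these proteases were read from 4 lists, beside 36.6% of all tested genes higher and 36.9% lower at relapse (median log2 fold change 0.00188), and 36.5% higher and 34.3% lower with sgIgfbp5 (median 0.06). Plasmin activates several pro-MMPs: of the genes of plasminogen activation, 5 rose, 1 fell and 1 did not pass of 7 tested at relapse, with a median log2 fold change of 0.91. With sgIgfbp5 1 rose, 6 fell and 1 did not pass of 8 tested, with a median of -1.79. With most genes called in both comparisons, these counts describe the list and were not tested against other genes. At relapse Plau, urokinase, rose from 18.5, 24.0 and 19.5 to 59.5, 61.0 and 63.6 CPM (log2 fold change 1.58 ± 0.08, edgeR adjusted p = 5.01e-16). Plat, the tissue activator, fell from 54.2, 52.3 and 54.3 to 10.9, 13.5 and 12.4 CPM with sgIgfbp5 (-2.12 ± 0.10, edgeR adjusted p = 6.61e-09). The groups overlapped for neither activator in the comparison given. Serpine2, an inhibitor of these activators, rose from 14.8, 14.2 and 12.7 to 51.2, 57.8 and 54.4 CPM at relapse (1.97 ± 0.08, edgeR adjusted p = 1.65e-18). In CUUC-G Serpine2 fell from 51.1, 49.1 and 54.4 to 3.84, 4.72 and 3.76 CPM (-3.65 ± 0.12, edgeR adjusted p = 4.37e-10). Activators and inhibitors named here moved the same way within a comparison, and Plg, which encodes plasminogen, had 0 counts in all groups.

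Of the convertases and other regulators, 6 rose, 2 fell and 1 did not pass of 9 tested at relapse (median 0.39), and 2 rose, 5 fell and 2 did not pass of 9 tested with sgIgfbp5 (-0.63). Bsg, which encodes the MMP inducer EMMPRIN, rose from 382, 342 and 363 to 671, 661 and 650.3 CPM at relapse (0.87 ± 0.04, edgeR adjusted p = 3.13e-18). With sgIgfbp5 Bsg fell from 753, 846 and 914 to 419, 465 and 414 CPM (-0.95 ± 0.09, edgeR adjusted p = 1.58e-06). Pcsk6, a proprotein convertase, was lower in both, from 46.5, 50.1 and 47.0 to 25.3, 21.5 and 22.8 CPM at relapse (-1.04 ± 0.07, edgeR adjusted p = 5.85e-13) and from 19.3, 20.4 and 21.6 to 2.47, 2.56 and 2.25 CPM with sgIgfbp5 (-3.07 ± 0.13, edgeR adjusted p = 3.83e-09). Furin, which activates MMP14, MMP11 and ADAM precursors, was higher in both, from 63.7, 63.3 and 64.3 to 80.1, 81.3 and 82.1 CPM at relapse (0.35 ± 0.05, edgeR adjusted p = 3.93e-07) and from 92.9, 88.2 and 81.2 to 95.5, 121 and 114 CPM with sgIgfbp5 (0.33 ± 0.10, edgeR adjusted p = 0.00899).

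Of the ADAM10 and ADAM17 partners, 4 rose, 3 fell and 1 did not pass of 8 tested at relapse (median 0.39), and 4 rose, 2 fell and 2 did not pass of 8 tested with sgIgfbp5 (0.25). Rhbdf2, encoding iRhom2, which carries ADAM17 to the surface, rose from 36.3, 37.9 and 35.5 to 74.6, 70.7 and 74.8 CPM at relapse (1.00 ± 0.06, edgeR adjusted p = 9.13e-15). With sgIgfbp5 Rhbdf2 fell from 73.5, 75.5 and 74.2 to 38.1, 40.5 and 39.5 CPM (-0.92 ± 0.07, edgeR adjusted p = 5.57e-07). Frmd8, its stabilising partner, rose from 75.8, 70.9 and 70.8 to 128, 129.6 and 129.7 CPM at relapse (0.83 ± 0.04, edgeR adjusted p = 1.32e-15) and fell from 138, 140.0 and 131 to 79.6, 89.9 and 82.4 CPM with sgIgfbp5 (-0.70 ± 0.07, edgeR adjusted p = 6.71e-06). The tetraspanins that bind ADAM10 did not move as a group. Tspan17 fell from 11.6, 11.6 and 11.4 to 1.35, 1.195 and 1.62 CPM at relapse (-3.05 ± 0.18, edgeR adjusted p = 8.92e-15) and rose from 0.625, 1.15 and 1.88 to 9.09, 9.69 and 9.91 CPM with sgIgfbp5 (2.97 ± 0.28, edgeR adjusted p = 2.49e-06). Tspan15 fell from 7.98, 6.84 and 7.34 to 1.15, 1.94 and 1.62 CPM at relapse (-2.23 ± 0.21, edgeR adjusted p = 3.41e-10) and rose from 1.88, 3.11 and 2.26 to 12.02, 12.9 and 11.3 CPM with sgIgfbp5 (2.31 ± 0.19, edgeR adjusted p = 6.32e-07). Tspan5 rose at relapse (0.80 ± 0.07, edgeR adjusted p = 6.82e-11) and was not called with sgIgfbp5 (-0.09 ± 0.08, edgeR adjusted p = 0.368). The tetraspanins thus differed among themselves in direction. Tspan14 fell at relapse (-0.37 ± 0.09, edgeR adjusted p = 4.20e-04), and Tspan33, at low counts, rose in both comparisons (2.25 ± 0.51, edgeR adjusted p = 3.01e-04, and 0.95 ± 0.36, edgeR adjusted p = 0.0352 with sgIgfbp5). Rhbdf1, encoding iRhom1, was not called at relapse (-0.02 ± 0.07, edgeR adjusted p = 0.785) and rose with sgIgfbp5 (0.59 ± 0.08, edgeR adjusted p = 3.00e-05).

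Of the matrix substrates, 2 rose, 4 fell and 0 did not pass of 6 tested at relapse (median -1.27), and 3 rose, 2 fell and 1 did not pass of 6 tested with sgIgfbp5 (0.12). Fbn2, fibrillin-2, fell from 173, 192 and 188 to 26.4, 25.9 and 30.3 CPM at relapse (-2.74 ± 0.06, edgeR adjusted p = 5.79e-24) and rose from 30.1, 27.4 and 20.7 to 308, 345 and 391 CPM with sgIgfbp5 (3.74 ± 0.14, edgeR adjusted p = 9.59e-09). Vcan, higher at relapse, fell from 589, 448 and 409 to 46.7, 37.2 and 52.2 CPM with sgIgfbp5 (-3.41 ± 0.17, edgeR adjusted p = 6.14e-08). Bgn, biglycan, fell from 2702, 2768 and 2675 to 1572, 1574 and 1617 CPM at relapse (-0.77 ± 0.03, edgeR adjusted p = 1.34e-20). Acan, which encodes aggrecan, was not tested in either comparison, with at most 9 counts over any group.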

How the data were processed

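RNA-seq values of 12 mouse libraries were used, 3 in each of 4 groups taken from the sample labels. The submitters' processing notes name Salmon and the builds GRCm38 and mm10 beside human ones, without version or role. Per the labels' protocols, RNA was extracted with TRIzol and poly(A)-selected with a stranded TruSeq kit. The deposited tables hold the authors' estimated counts, per transcript for the tumours and per gene for CUUC-G, rounded to whole numbers; 153 CUUC-G values had a count of 0 with a TPM above 0. The deposited TPM values, which correct for length, are the authors', and depth came from the counts. CUUC-G columns marked mI were taken as sgIgfbp5, since the matching human columns carry hI for the targeted line.

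Transcripts were summed by gene id. Genes were filtered with filterByExpr, scaled by TMM and tested with robust quasi-likelihood fits in edgeR 4.0.16 (R 4.3.3), within each comparison, two-sided, with Benjamini-Hochberg adjustment over all genes; SE is the log2 fold change over the root of F. On simulated counts with 200 changed genes, 49 of 50 genes changed 2-fold were called in the tumour design and 46 of 50 in the CUUC-G design. Of 50 genes changed 1.5-fold, 45 and 36 were called. The simulation used 1 spread for all genes and few changed genes, while 73.5% and 70.8% of genes were called in the data. It therefore does not show how scaling behaves when most genes differ. DESeq2 1.42.0 and limma 3.58.1 (log2 of TPM plus 1 or 0.1, mean TPM of at least 1 or no filter), other scalings, no count filter, a replicate block, protein_coding transcripts alone, a 2-fold minimum and each library left out were alternatives.

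Named were members with a group mean of at least 5 CPM, the TIMPs, Mmp2, Mmp9, Mmp14, Adam10 and Adam17, up to 3 lower members per comparison by smallest p, and up to 3 genes of each list; Mmp12, Mmp15 and the remaining genes were named after their values were seen. One gene of the plasminogen list, counted with it, is not reported here. The members and lists were chosen with earlier results of these data known. Positions come from GENCODE M21, which held all 85 members; the annotation release behind the tables is not given in the sources used here. Protein sequences were not used here, so the planned split of ADAMs by active-site motif was replaced by textbook classes.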

Additional observations from a re-analysis of the deposited data

How the results depend on the processing

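Leaving out each library in turn gave 33 to 37 called members at relapse (17 to 19 higher, 16 to 18 lower) and 29 to 35 in CUUC-G (7 to 10 higher, 22 to 25 lower). Of the 36 and 34 members called, 33 to 36 at relapse and 30 to 34 in CUUC-G were still called in the same direction with RLE or library-size scaling, DESeq2 or no count filter. A 2-fold minimum left 20 and 20. The 10 members higher with sgIgfbp5 became 6 with DESeq2 and 5, 5 and 5 in the limma fits, which tested 29, 29 and 34 of the 34 called members. Adam10 at relapse turned to -0.00717, -0.00725 and -0.00717 in the limma fits on log2(TPM + 1), on log2(TPM + 0.1) and without a TPM filter, and Adamtsl5 to 0.54 with protein_coding transcripts alone; the cause was not tested. The 7 members whose transcript shares did not overlap became 7 to 12 with a library left out, 12 of them without relapsed replicate 2, where 27.3% of all genes did not overlap. Replicate numbers did not pair the libraries (same-number correlations of deviations from 0.006 to 0.015 in the tumours and from -0.082 to 0.093 in CUUC-G); with a replicate block 36 and 34 members were called, all of them the same genes as without it. Depth limits the untested members, whose group means were at most 0.697 CPM.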
